A study of Mus musculus with 21 samples.

Results

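Steroid hormones are made from cholesterol by a short chain of enzymes, and 6 genes of that chain and of glucocorticoid conversion are described here in cells of the mouse embryonic pancreas, out of 19296 genes measured. They are Hsd3b6, Star, Cyp11a1, Nr5a1, Hsd11b1 and Hsd11b2. Hsd3b6 was chosen by its measured difference between the sorted cells at E13.5 and the others for acting in the same pathway, each through its highest-mean probe set naming it alone, so values at E13.5 are given as a description with no test. Pancreata of embryos taken on 4 consecutive days of gestation, E12.5 through E15.5, were sorted on FVF, a fusion of the endoderm transcription factor Foxa2 with the fluorescent protein Venus, and profiled on Affymetrix arrays. FVF+ cells carried the fusion protein, and FVF- cells are the pancreatic cells that did not, of whatever type. The FVF- groups held 2, 2, 3 and 3 arrays in order of day and the FVF+ groups 3, 2, 3 and 3, which makes 10 and 11. All embryos had a mixed strain background of C57-Bl6, SV129 and CD1, and the labels give no further allele or treatment. Replicates are called biological without a statement on embryos or litters. The p-values therefore reflect variation among the arrays at hand, whose small number sets the precision.

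Star brings cholesterol into the mitochondrion, Cyp11a1 cleaves its side chain to give pregnenolone, and 3-beta-hydroxysteroid dehydrogenases of the Hsd3b family turn pregnenolone into progesterone. Nr5a1 encodes SF-1, the nuclear receptor that drives these genes in adrenal cortex and gonad, and Hsd3b6 is a member of the family known from placenta, testis and adrenal. Hsd11b1 and Hsd11b2 encode enzymes that act in opposite directions: the first regenerates active glucocorticoid inside cells, the second inactivates it, and both set how much of the hormone reaches its receptor in fetal tissue. The pancreas is not counted among the classical steroid-making organs, but glucocorticoids are known to influence how its endocrine and exocrine cells develop.

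Each gene was read by 1 probe set that names it alone. In build GRCm38.p6, Hsd3b6 lies on chromosome 3 from 98805504 to 98814443, Star on chromosome 8 from 25808474 to 25815982, Cyp11a1 on chromosome 9 from 57998024 to 58027031, Nr5a1 on chromosome 2 from 38692656 to 38714542, Hsd11b1 on chromosome 1 from 193221640 to 193264045, and Hsd11b2 on chromosome 8 from 105518746 to 105523988. Hsd3b6 sits in a row of near-identical genes, between Hsd3b3 (98741476 to 98764540) and Hsd3b1 (98842356 to 98859794), and a probe set can bind transcripts of close copies, so its identity among them rests on the array annotation.

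Promoter sequences from RefSeq, 250 bases up to an annotated start in GRCm38.p6, were at hand for 3 of the 6 genes. The promoters of Hsd3b6, which had the widest range of signal, and of its neighbour Hsd3b1, which stayed within a narrow band, are shown together. The promoter at the second annotated start of Cyp11a1 is shown because it holds AGGTCA, a general half-site of nuclear receptors. The promoter at the first start of Cyp11a1 and the one at hand for Hsd11b1 held neither of the marked motifs and are not shown. The Hsd11b1 promoter, from 193242361 to 193242610 on the minus strand, lay inside the span of that gene given above. The sequence before the outer end of Hsd11b1 was not searched. Capitals mark GATAA, the core recognised by GATA factors (TTATC on the other strand), or AGGTCA, the nuclear receptor half-site, both searched on both strands.
Hsd3b6, chr3:98814444-98814693, minus strand: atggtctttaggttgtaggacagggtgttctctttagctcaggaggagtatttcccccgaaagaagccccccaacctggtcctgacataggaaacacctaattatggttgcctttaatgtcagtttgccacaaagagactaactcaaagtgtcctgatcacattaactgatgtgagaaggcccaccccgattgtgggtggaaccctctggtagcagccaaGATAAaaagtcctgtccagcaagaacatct
Hsd3b1, chr3:98859795-98860044, minus strand: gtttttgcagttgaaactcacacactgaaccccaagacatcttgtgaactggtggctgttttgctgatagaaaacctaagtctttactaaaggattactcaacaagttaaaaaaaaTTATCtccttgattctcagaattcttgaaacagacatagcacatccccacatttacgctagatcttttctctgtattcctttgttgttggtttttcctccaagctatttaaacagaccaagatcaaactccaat
Cyp11a1, chr9:58014702-58014951, plus strand: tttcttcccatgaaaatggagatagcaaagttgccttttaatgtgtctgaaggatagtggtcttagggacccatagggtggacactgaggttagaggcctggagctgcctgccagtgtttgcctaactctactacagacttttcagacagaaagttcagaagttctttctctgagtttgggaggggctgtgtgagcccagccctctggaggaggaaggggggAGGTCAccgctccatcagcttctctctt
In Hsd3b6 the GATAA lay from -30 to -26 relative to the start, and in Hsd3b1 the reverse form lay from -134 to -130. The AGGTCA of Cyp11a1 lay from -28 to -23. Of 32851 promoters of the same length, 22.6% held GATAA and 14% held AGGTCA on either strand, so a match is common and describes these letters only.

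Signals are log2 RMA values, in which arrays were put on one scale by robust multi-array average, so a difference of 1 is a doubling. A gene was called different at a limma adjusted p under 0.05 over all 19296 genes. Arrays of a group correlated at 0.985 to 0.997 over genes. Foxa2 marked the sort, with 10.87 to 11.51 on the FVF+ arrays and 7.98 to 8.89 on the FVF- arrays. Markers of pancreatic epithelium (6 of 6 measured) averaged 12.13 to 12.84 in FVF+ and 7.96 to 9.72 in FVF-, and those of mesenchyme (6 of 6) 7.74 to 9.45 in FVF+ and 11.49 to 13.02 in FVF-. Marker means also differed within groups. A pair of arrays that carried more signal of the other sort, called the doubted arrays here, was left out together as an alternative. The first, FVF+ E12.5 replicate 1, carried more mesenchyme signal (9.16, against 7.91 and 7.74) and red blood cell signal (8.86, against 7.73 and 7.47), and the second, FVF- E14.5 replicate 3, more epithelial signal (9.72, against 8.89 and 8.04). Other arrays differed by as much on other lists: FVF+ E13.5 replicate 2 had more endothelial signal than replicate 1 (9.35 against 7.89), and FVF- E15.5 replicate 2 more endocrine signal than replicates 1 and 3 (9.04, against 7.78 and 8.14). Leaving out the doubted arrays changed only the calls of the 6 genes that are given beside each gene.

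The question put first was how the cells that carry Foxa2 differ from the other cells of the same pancreas. E13.5 chose Hsd3b6, and all 6 genes were chosen with earlier results of these data known, so the other days are not fully apart from the choice. For the mean of the differences at E12.5, E14.5 and E15.5, Hsd3b6, Hsd11b2, Cyp11a1 and Hsd11b1 were lower in FVF+ cells. Star and Nr5a1 were not called. That is 4 of 6 called, all lower, where 54.1% of all genes were called, 28.9% higher and 25.2% lower. Their median difference was -0.43, beside 0.01 over all genes. At E12.5, Hsd3b6, Hsd11b1 and Hsd11b2 were lower (3 of 6, with 35.9% of all genes called, 17.2% higher and 18.7% lower). At E14.5 Cyp11a1 joined them (4 of 6, with 44.6% called, 23.1% higher and 21.5% lower). At E15.5 Hsd11b2, Cyp11a1 and Hsd11b1 were lower and Star higher (4 of 6, with 43.9% called, 24.4% higher and 19.5% lower). These shares of all genes are large, and whether the counts are particular to the pathway was not tested, so the genes are taken in turn. In whole sorted populations, fewer cells of a type and less RNA per cell cannot be told apart.

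**Figure D1:**
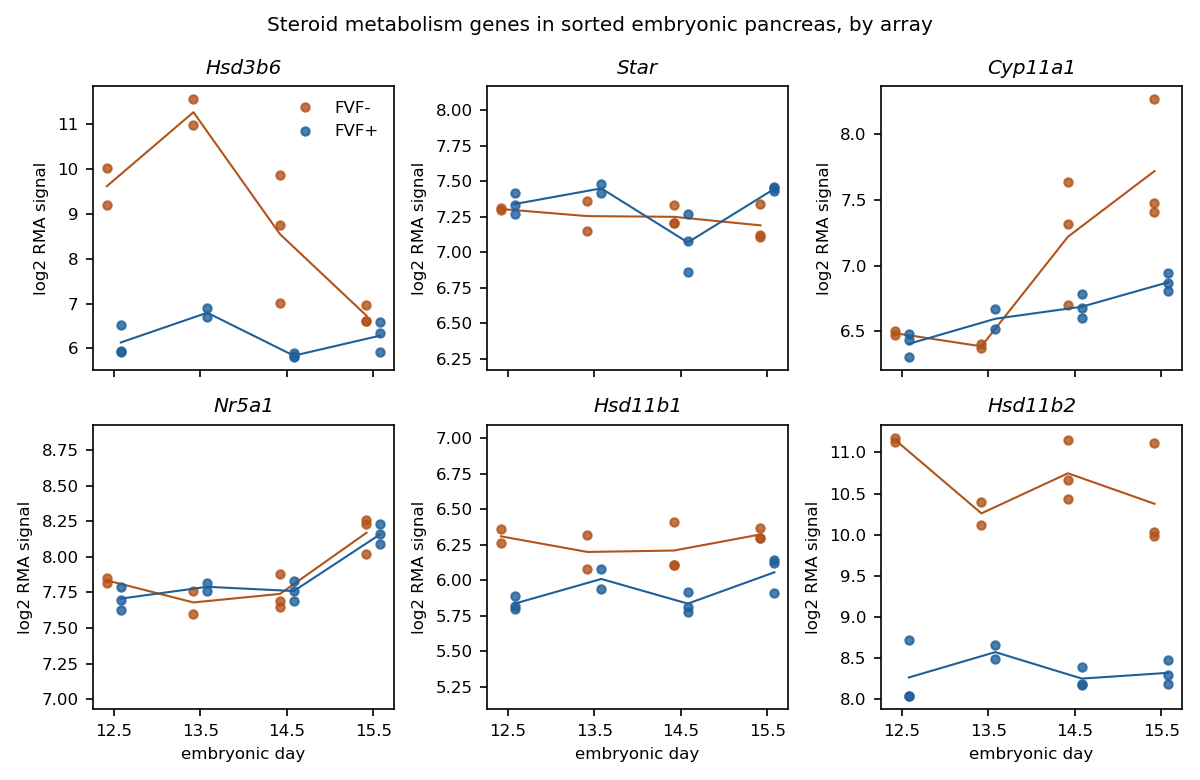
Log2 RMA signal of the 6 genes (vertical axis, each panel with its own scale) against embryonic day, with 1 point per array, FVF- in orange and FVF+ in blue, offset sideways, and lines through group means. Hsd3b6 in FVF- lay at 9.20 and 10.02 at E12.5 and at 6.61 to 6.96 at E15.5, while FVF+ stayed between 5.80 and 6.90.

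Hsd3b6 was the gene whose signal moved most. In FVF- cells it read 9.20 and 10.02 at E12.5, 10.96 and 11.55 at E13.5, 8.75, 7.02 and 9.86 at E14.5, and 6.96, 6.61 and 6.62 at E15.5. In FVF+ cells it read 6.53, 5.92 and 5.95, then 6.69 and 6.90, then 5.80, 5.89 and 5.83, then 5.93, 6.59 and 6.34. The FVF- arrays were thus high early, spread widely at E14.5 and close to the FVF+ arrays at E15.5, and the sorts did not overlap on any day. In order of group means, FVF- E13.5 (11.26) came first, followed by FVF- E12.5 (9.61), FVF- E14.5 (8.54), FVF+ E13.5 (6.79), FVF- E15.5 (6.73), FVF+ E15.5 (6.29), FVF+ E12.5 (6.13) and FVF+ E14.5 (5.84). Both FVF- E13.5 arrays lay above all others. Neighbours in that order whose arrays overlapped were FVF- E12.5 with FVF- E14.5, FVF+ E13.5 with FVF- E15.5, and FVF+ E15.5 with FVF+ E12.5.

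The sort difference in Hsd3b6 was large at E12.5 and E14.5 and small at E15.5. FVF+ minus FVF- was -3.48 ± 0.50 (SE, log2 units) at E12.5, or 11.1-fold lower (limma adjusted p = 1.9e-05), and -2.70 ± 0.45 at E14.5, or 6.51-fold lower (adjusted p = 6.1e-05). At E15.5 the difference was -0.44 ± 0.45 (95% interval -1.38 to 0.50, limma adjusted p = 0.452) and was not called, although no FVF+ array reached an FVF- array. Averaged over these days it was -2.21 ± 0.27 (adjusted p = 9.8e-07). At E13.5, the day that chose the gene, the difference was -4.46, or 22-fold.

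Over time, Hsd3b6 fell in FVF- cells and was not called in FVF+ cells. From first to last day the FVF- signal fell by 2.88 log2 units (-2.88 ± 0.50 SE, n = 2 and 3, 7.36-fold, limma adjusted p = 5.1e-04). It had first been higher by 1.64 at E13.5 than at E12.5, and was then lower by 2.71 at E14.5 (-2.71), values given without a test. The last step, from E14.5 to E15.5, was -1.81 ± 0.45 (limma adjusted p = 0.0243). This last call rests on single arrays: it was lost without FVF- E14.5 replicate 1 or 3 or any of the 3 FVF- E15.5 arrays, with differences from -2.57 to -1.15 over all arrays left out, and without both doubted arrays it was -1.15 (adjusted p = 0.0854). In FVF+ the first-to-last-day change was 0.15 ± 0.45 (95% interval -0.79 to 1.09, limma adjusted p = 0.797), and it turned to -0.07 after cyclic loess normalization. The change differed between the sorts by 3.03 ± 0.67 (interaction, limma adjusted p = 0.00475), called for no other of the 6 genes in this fit, where 19.6% of all genes were called, 10.8% higher and 8.83% lower. In some of the alternatives Cyp11a1 or Hsd11b2 was called as well, as given with those genes.

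Blood and adrenal markers were read beside Hsd3b6, since FVF- cells are a mixture. Red blood cell markers (5 of 6 measured: the embryonic globins Hbb-y, Hba-x and Hbb-bh1, with Alas2 and Slc4a1) averaged 11.04 to 11.16 in FVF- at E12.5, 11.68 to 11.73 at E13.5, 11.02 to 11.97 at E14.5 and 9.90 to 10.48 at E15.5, and 7.47 to 8.86 in FVF+ over all days. All 5 were lower in FVF+ at E12.5, E14.5 and E15.5. Between E12.5 and E15.5 in FVF- cells the 3 embryonic globins fell and Alas2, the enzyme that starts heme synthesis in red cells, rose. Markers of adrenal cortex and gonad (10 of 11 measured) averaged 7.19 to 7.52 in FVF- and 7.12 to 7.40 in FVF+, and Mc2r, the corticotropin receptor, stayed between 5.16 and 5.46 on all 21 arrays. Between first and last day in FVF-, 3 of these 10 fell (Nr0b1, Lhx9 and Inha), none rose, and the median change was 0.03. Of all genes, 9.7% fell and 10.7% rose. Nr0b1, a partner of SF-1, fell from 7.17 and 7.26 at E12.5 to 6.40, 6.41 and 6.37 at E15.5 (-0.82 ± 0.13 SE, limma adjusted p = 2.2e-04). Markers of the spleen primordium (5 of 6), which buds beside the pancreas, averaged 10.80 to 11.54 in FVF- and 7.92 to 9.04 in FVF+. The part of these cells in the Hsd3b6 signal was not tested.

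Over the 21 arrays, the gene whose signal was most like that of Hsd3b6 was Hbb-bh1, a beta-like globin of the first, yolk-sac-derived red cells, with a Pearson correlation of 0.968. The next were Cpa6 (0.93), Lhfpl1 (0.917), Gabrb1 (0.91), Lef1 (0.909) and Ntsr1 (0.909). These values describe 21 arrays that share sort and day, and were picked as the highest of all genes. Over the 10 FVF- arrays alone Hbb-bh1 again came first (0.956), followed by Zscan12 (0.943), Dsc2 (0.939), Fyco1 (0.937), Hp1bp3 (0.933) and Xrcc5 (0.932). Hbb-bh1 in FVF- read 9.22 and 9.20 at E12.5, 9.88 and 9.81 at E13.5, 7.72, 7.24 and 8.45 at E14.5, and 6.75, 6.83 and 6.89 at E15.5. At E14.5, where the arrays differed most, both genes were highest on replicate 3 and lowest on replicate 2. The red blood cell list as a whole had the same order there (11.31, 11.02 and 11.97). That order was not particular to blood: pancreatic epithelium (8.89, 8.04 and 9.72) and acinar markers (9.24, 8.86 and 10.21) shared it. The endocrine and hepatocyte lists did too, and the remaining lists did not. Replicate 3 is the doubted array with more epithelial signal. Over the FVF- arrays the other embryonic globins correlated with Hsd3b6 at 0.843 (Hbb-y) and 0.857 (Hba-x), and the remaining red cell genes at -0.49 (Alas2) and -0.0151 (Slc4a1). By Spearman rank correlation over 21 arrays, 0 of the 6 genes were shared with the Pearson list, and Slitrk5 (0.955) and Opcml (0.945) led.

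**Figure D2:**
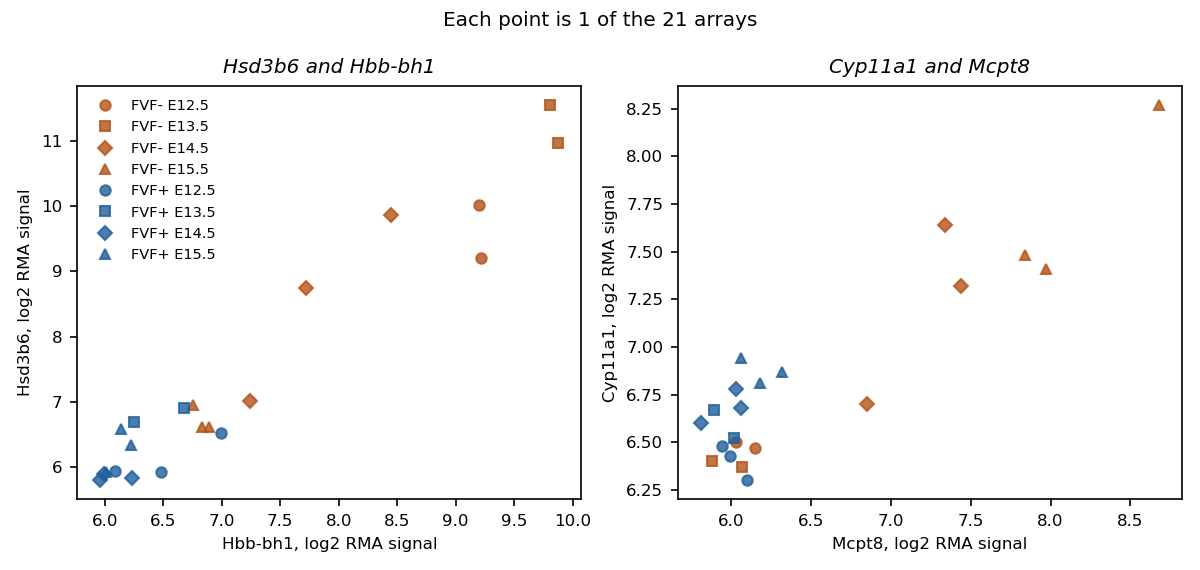
Log2 RMA signal of Hsd3b6 against Hbb-bh1 (left) and of Cyp11a1 against Mcpt8 (right), with 1 point per array, color for the sort and shape for the day. Hsd3b6 and Hbb-bh1 were both high on the FVF- arrays of E12.5 and E13.5, whereas Cyp11a1 and Mcpt8 were both high on FVF- arrays of E15.5, up to 8.27 and 8.68.

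Star, the cholesterol carrier, was called neither for the mean sort difference nor for its change from first to last day. FVF- arrays read 7.31 and 7.30 at E12.5, 7.36 and 7.15 at E13.5, 7.33, 7.21 and 7.21 at E14.5, and 7.11, 7.34 and 7.12 at E15.5. FVF+ arrays read 7.33, 7.42 and 7.27, then 7.48 and 7.42, then 6.86, 7.08 and 7.27, then 7.45, 7.46 and 7.43. All 21 lay between 6.86 and 7.48, and the sorts overlapped at E12.5 and E14.5 but not at E13.5 or E15.5. The mean sort difference was 0.04 ± 0.06 SE (95% interval -0.09 to 0.16, limma adjusted p = 0.633). At E15.5 Star was higher in FVF+ by 0.26 ± 0.10 (limma adjusted p = 0.0394). That call was lost when any one of 5 of the 6 E15.5 arrays (all but FVF- replicate 2) was left out, with differences of 0.22 to 0.33, and without both doubted arrays (0.26, adjusted p = 0.0542). A block for same-numbered arrays also lost it (0.26, limma adjusted p = 0.0790). Within FVF+ cells Star rose from E14.5 to E15.5 by 0.38 ± 0.10 (limma adjusted p = 0.0108), which was not called without FVF+ E14.5 replicate 1, the lowest array (0.27, adjusted p = 0.0664). Its first-to-last-day change was 0.11 ± 0.10 in FVF+ (adjusted p = 0.380), turning to -0.11 after quantile or cyclic loess normalization, and -0.11 ± 0.11 in FVF- (adjusted p = 0.532). Genes most like Star over 21 arrays reached only 0.734 (Thrsp), 0.716 (Olfr1389) and 0.715 (Cntn2), and over the FVF- arrays Med20 (0.921), Eif2d (0.91) and Fam71e1 (0.897) came first.

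Cyp11a1, the side-chain cleavage enzyme that commits cholesterol to steroids, ran the other way in time from Hsd3b6. Its FVF- arrays read 6.50 and 6.47 at E12.5, 6.37 and 6.40 at E13.5, 7.64, 7.32 and 6.70 at E14.5, and 8.27, 7.41 and 7.48 at E15.5. FVF+ arrays read 6.43, 6.30 and 6.48, then 6.52 and 6.67, then 6.68, 6.78 and 6.60, then 6.94, 6.87 and 6.81. The FVF- arrays were at the FVF+ level early and above it at E15.5, and at E14.5 replicate 3 of FVF- still overlapped the FVF+ arrays.

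In FVF- cells Cyp11a1 rose from E12.5 to E15.5 by 1.24 ± 0.22 SE (n = 2 and 3, 2.35-fold, limma adjusted p = 7.3e-04). In FVF+ cells the change was 0.47 ± 0.20 (95% interval 0.05 to 0.89, limma adjusted p = 0.0618), with all E15.5 arrays above all E12.5 arrays. It was called without FVF- E14.5 replicate 1, FVF- E14.5 replicate 3 or FVF- E15.5 replicate 1 (all 0.47), and without both doubted arrays (0.48, adjusted p = 0.0450). The difference between these changes was -0.77 ± 0.30 (limma adjusted p = 0.0808) and not called, but it was called without FVF- E14.5 replicate 1, FVF- E14.5 replicate 3 or FVF- E15.5 replicate 2, with values from -0.92 to -0.49 over all arrays left out. It was also called after quantile normalization (-0.88, limma adjusted p = 0.0380), after cyclic loess normalization (-0.94, adjusted p = 0.0281) and with array weights (-0.74, adjusted p = 0.0300). With a block for the replicate number, shared over all days, it was called too (-0.85, limma adjusted p = 0.0436), as was the FVF+ change (0.47, adjusted p = 0.0429). The sort difference was -0.08 ± 0.22 at E12.5 (adjusted p = 0.814), -0.53 ± 0.20 at E14.5 (limma adjusted p = 0.0371) and -0.85 ± 0.20 at E15.5 (adjusted p = 0.00193). The E14.5 call was lost without any one of FVF- replicates 1 and 2 and FVF+ replicates 1 and 3, with differences of -0.79 to -0.32, and after median centring (-0.50). Over the 10 FVF- arrays Cyp11a1 and Hsd3b6 correlated at -0.824, a value that rests on the shared days.

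The genes most like Cyp11a1 over 21 arrays were Dpt (0.928), an extracellular matrix gene, H2-Ab1 (0.917), a class II antigen-presenting gene, and Mcpt8 (0.917), a protease of basophils. Mcpt8 read 6.03 and 6.15 in FVF- at E12.5, 6.07 and 5.88 at E13.5, 7.34, 7.44 and 6.85 at E14.5, and 8.68, 7.97 and 7.84 at E15.5. It was highest on the same array as Cyp11a1, FVF- E15.5 replicate 1, and stayed between 5.81 and 6.32 in FVF+. Prss34, another protease of basophils and mast cells that was looked up after Mcpt8 had been seen, correlated with Cyp11a1 at 0.908 over 21 arrays and 0.959 over the FVF- arrays. Il3ra, a receptor chain of basophils and mast cells looked up at the same time, correlated at 0.293 and 0.971. The mast cell proteases Cpa3 (0.592 and 0.676) and Cma1 (0.823 and 0.866) were lower than Mcpt8 over both sets of arrays. Among the FVF- arrays alone the closest were Serpinb12 (0.985), Chst4 (0.974) and Naprt (0.973), none of them shared with the list over all arrays.

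Mast cell markers (7 of 7 measured) moved in the same direction as Cyp11a1. Their mean was 6.86 to 6.95 in FVF- at E12.5, 7.11 to 7.47 at E13.5, 7.41 to 8.03 at E14.5 and 8.10 to 8.33 at E15.5, and 6.20 to 6.61 in FVF+ on all days. Between E12.5 and E15.5 in FVF- cells 6 of 7 rose (Cpa3, Cma1, Mcpt4, Ms4a2, Tpsb2 and Hdc) and none fell. Of all genes, 10.7% rose and 9.7% fell in that comparison. Dpt belongs to connective tissue, and H2-Ab1 is carried by macrophages among other cells. Over these days in FVF-, 4 of 6 mesenchyme markers rose, 4 of 6 mesothelium markers (9.82 to 9.86 at E12.5 and 10.60 to 10.90 at E15.5) and 3 of 6 macrophage markers (9.77 to 9.81 at E12.5 and no array under 10.57 at E15.5), and none of these fell. Rises without falls were also seen for pericyte and smooth muscle (3 of 6), acinar (3 of 6), endothelium (2 of 6) and neural crest and glia markers (2 of 5). Other lists fell, among them red blood cell markers (3 of 5 lower, 1 higher). The part of mast cells, basophils, macrophages, mesothelium, mesenchyme or any other of these cell types in the Cyp11a1 signal was not tested.

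Nr5a1, the gene of SF-1, was not called different between the sorts on any tested day. FVF- arrays read 7.82 and 7.85 at E12.5, 7.60 and 7.76 at E13.5, 7.88, 7.69 and 7.65 at E14.5, and 8.26, 8.23 and 8.02 at E15.5. FVF+ arrays read 7.79, 7.70 and 7.63, then 7.76 and 7.82, then 7.76, 7.83 and 7.69, then 8.09, 8.16 and 8.23. The sorts overlapped on the last 3 days, and in both of them the E15.5 arrays lay above every earlier array. The mean sort difference was -0.04 ± 0.05 SE (95% interval -0.15 to 0.07, limma adjusted p = 0.564), and its sign turned after quantile (0.04) or cyclic loess normalization (0.01).

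Nr5a1 rose to E15.5 in both sorts. In FVF+ it rose from E12.5 to E15.5 by 0.45 ± 0.09 (limma adjusted p = 4.9e-04), the only one of the 6 genes called for that change, where 46.9% of all genes were called, 27.6% higher and 19.3% lower. The rise was smaller after quantile (0.29) and cyclic loess normalization (0.26), and still called. In FVF- it rose by 0.34 ± 0.10 (limma adjusted p = 0.0194), a call lost without FVF- E12.5 replicate 1 or 2 or FVF- E15.5 replicate 1 or 2 (0.29 to 0.41) and after median centring (0.25). From E14.5 to E15.5 it rose by 0.40 ± 0.09 in FVF+ (limma adjusted p = 0.00420), and by 0.43 ± 0.09 in FVF- (adjusted p = 0.00907, or 0.38 and 0.0529 without FVF- E15.5 replicate 1). These first-to-last-day rises differed between the sorts by 0.12 ± 0.13 (95% interval -0.15 to 0.39, limma adjusted p = 0.549), or by -0.06 after cyclic loess normalization. These are small differences, next to a median change of 0.09 over all genes in FVF+ and of 0.13 over the dimmest 25% of genes. The genes most like Nr5a1 over 21 arrays were Olfr94 (0.94), an olfactory receptor gene, Adamts13 (0.915) and Aqp2 (0.913), and over the FVF- arrays Ihh (0.975), Spink5 (0.967) and Olfr94 (0.953).

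Across the 6 genes, the changes with time were thus in unlike directions. In FVF+ cells between E12.5 and E15.5, 1 of 6 was called, Nr5a1 higher, where 46.9% of all genes were called, 27.6% higher and 19.3% lower. In FVF- cells between E12.5 and E15.5, 3 of 6 were called, Cyp11a1 and Nr5a1 higher and Hsd3b6 lower, where 20.4% of all genes were called, 10.7% higher and 9.7% lower. In the FVF- step from E14.5 to E15.5, 2 of 6 were called, Nr5a1 higher and Hsd3b6 lower, where 6.49% of all genes were called, 1.84% higher and 4.65% lower. In the same step in FVF+ cells, 2 of 6 were called, Star and Nr5a1, both higher, where 25.6% of all genes were called, 14.7% higher and 10.8% lower.

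**Figure D3:**
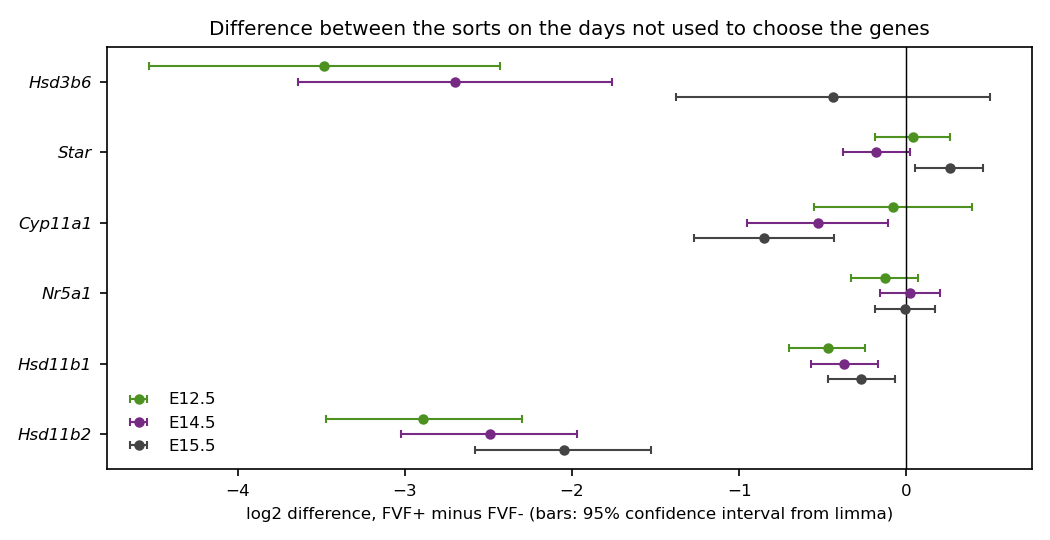
Difference in log2 RMA signal between the sorts (FVF+ minus FVF-, horizontal axis) for each gene at E12.5, E14.5 and E15.5, with 95% confidence intervals from limma. Hsd3b6 moved from -3.48 to -0.44, Cyp11a1 from -0.08 to -0.85, and Hsd11b2 stayed between -2.89 and -2.05.

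Hsd11b2, which inactivates glucocorticoid, was lower in FVF+ on each tested day. In FVF- it read 11.18 and 11.13 at E12.5, 10.12 and 10.40 at E13.5, 11.15, 10.66 and 10.43 at E14.5, and 9.98, 11.12 and 10.03 at E15.5. In FVF+ it read 8.72, 8.04 and 8.04, then 8.49 and 8.66, then 8.39, 8.19 and 8.18, then 8.19, 8.30 and 8.48. Every FVF- array lay above every FVF+ array. FVF+ minus FVF- was -2.89 ± 0.28 SE at E12.5 (limma adjusted p = 1.4e-07), -2.49 ± 0.25 at E14.5 (adjusted p = 1.3e-07) and -2.05 ± 0.25 at E15.5 (adjusted p = 1.6e-06), and the mean was -2.48 ± 0.15 (5.57-fold, adjusted p = 5.3e-11). At E13.5 the difference was -1.68, not tested.

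Hsd11b2 in FVF- had a change with time near the threshold, called under several alternatives. Its change from E12.5 to E15.5 was -0.78 ± 0.28 (95% interval -1.36 to -0.19, limma adjusted p = 0.0561), and without FVF- E15.5 replicate 2, which read 11.12 where the others read 9.98 and 10.03, it was -1.15 (adjusted p = 0.00154). That array also had the most signal of its group on several marker lists, among them endocrine, pancreatic epithelium, hepatocyte, red blood cell and mesenchyme. On others, such as mast cell and endothelium, it had the least, and the part of these cells was not tested. The change was also called without FVF+ E12.5 replicate 1 or FVF- E14.5 replicate 1, and without both doubted arrays (-0.78 in each). Median centring (-0.86, limma adjusted p = 0.0326), array weights (-0.80, adjusted p = 0.0125) and the filter on dim genes (-0.78, adjusted p = 0.0428) gave a call too. In FVF+ the change was 0.06 ± 0.25 (adjusted p = 0.868), with the sign turning to -0.08 after quantile normalization. The interaction was 0.83 ± 0.37 (limma adjusted p = 0.121), or 1.21 without FVF- E15.5 replicate 2 (adjusted p = 0.00875), 0.93 with array weights (adjusted p = 0.0352) and 1.06 without both doubted arrays (adjusted p = 0.0463).

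Genes most like Hsd11b2 over 21 arrays were Cpa4 (0.978), Twist2 (0.977) and Hand2 (0.975), of which the last pair encode transcription factors of mesenchyme. Hand2 averaged 11.67 to 12.49 over the FVF- groups and 8.75 to 9.56 over the FVF+ groups. These values describe arrays that fall into 2 separate sorts, and within FVF- alone the correlation of Hsd11b2 was 0.674 with Hand2 and 0.737 with Twist2, while 1700057G04Rik (0.943), Tshb (0.928) and Slc5a2 (0.918) came first. Hsd11b2 and Hsd3b6, both higher in FVF-, correlated at 0.0279 over the FVF- arrays. Mesenchyme markers were lower in FVF+ in 6 of 6 cases at each of E12.5, E14.5 and E15.5, and FVF+ E12.5 replicate 1, the array with the most mesenchyme signal of its group, had the highest Hsd11b2 of its group (8.72). The part of mesenchyme in the Hsd11b2 signal was not tested.

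Hsd11b1, which regenerates active glucocorticoid, was also lower in FVF+ cells, by a small amount. FVF- arrays read 6.36 and 6.26 at E12.5, 6.08 and 6.32 at E13.5, 6.41, 6.11 and 6.11 at E14.5, and 6.37, 6.30 and 6.30 at E15.5. FVF+ arrays read 5.80, 5.89 and 5.82, then 6.08 and 5.94, then 5.81, 5.78 and 5.92, then 5.91, 6.12 and 6.14. The sorts touched at E13.5 and were apart on the other days. The difference was -0.47 ± 0.11 SE at E12.5 (limma adjusted p = 0.00178), -0.37 ± 0.10 at E14.5 (adjusted p = 0.00341) and -0.27 ± 0.10 at E15.5 (adjusted p = 0.0298), with a mean of -0.37 ± 0.06 (1.29-fold, adjusted p = 1.8e-05). The E15.5 call was lost after median centring (-0.20) and without any of the 3 FVF- arrays or FVF+ replicate 1 of that day (-0.31 to -0.19). A block for same-numbered arrays also lost it (-0.27, limma adjusted p = 0.0838). From first to last day the change was 0.22 ± 0.10 in FVF+ (limma adjusted p = 0.0662; called without FVF- E14.5 replicate 1, and at 0.29 without FVF+ E15.5 replicate 1) and 0.01 ± 0.11 in FVF- (adjusted p = 0.953; -0.07 after median centring and -0.01 after quantile normalization).

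The genes most like Hsd11b1 over 21 arrays were Camk2a (0.903), Hspb7 (0.902) and Tnnt2 (0.902), the last a troponin of heart muscle, and over the FVF- arrays Cyp26c1 (0.935), Prdm13 (0.93) and Slc1a1 (0.93). Hsd11b1 and Cyp11a1 belonged to the dimmest 25% of genes by mean signal (6.09 and 6.84).

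The other genes of the pathway were read from 4 lists, chosen with earlier results of these data known. Of the steroid-converting enzymes, 14 of 18 were measured, and for the 3-day mean sort difference 1 was higher and 1 lower in FVF+, with a median of 0.03 beside 0.01 over all genes, of which 28.9% were higher and 25.2% lower. Akr1c18, which inactivates progesterone, was higher by 0.66 ± 0.08 (SE, limma adjusted p = 1.3e-06), and Hsd17b7, of estrogen and cholesterol synthesis, was lower (-0.58 ± 0.07, adjusted p = 2.1e-06). The enzymes that carry progesterone on to corticosteroids and androgens were not called: Cyp17a1 differed by -0.01 ± 0.07, Cyp21a1 by 0.06 ± 0.07 and Cyp11b1 by -0.13 ± 0.06. Without FVF+ E12.5 replicate 1 or FVF- E15.5 replicate 2 the count called rose from 2 to 4, and to 5 without both doubted arrays. From first to last day in FVF+, 2 of 14 rose and 2 fell, where 27.6% of all genes rose and 19.3% fell. Cyp11b2, the aldosterone synthase (0.35 ± 0.11, limma adjusted p = 0.0174), and Hsd17b2, which inactivates sex steroids (0.32 ± 0.12, adjusted p = 0.0407), rose. These are small rises, next to a median change of 0.09 over all genes in FVF+ and of 0.13 over the dimmest 25%. After quantile or cyclic loess normalization the count of the list called for this change was 2, against 4. Akr1c18 fell, from a mean of 7.14 at E12.5 (-1.14 ± 0.14, limma adjusted p = 6.4e-06), and stood at 5.76 to 5.93 in every FVF- group. Hsd17b7 fell in both sorts, by 1.41 in FVF- (-1.41 ± 0.14, adjusted p = 2.5e-06) and by 0.55 in FVF+ (-0.55 ± 0.12, adjusted p = 0.00192).

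None of the other Hsd3b genes with a probe set of its own was called for the 3-day mean sort difference. Hsd3b1 stayed between 5.31 and 5.75 on all arrays, Hsd3b3 between 5.44 and 6.06, Hsd3b5 between 5.65 and 6.03, and Hsd3b2 between 5.34 and 6.51, with the highest Hsd3b2 values in FVF+. Hsd3b3, the neighbour on one side, was lower in FVF+ at E12.5 (-0.36 ± 0.11, limma adjusted p = 0.0177) and fell in FVF- to E15.5 (-0.35 ± 0.11, adjusted p = 0.0329). Hsd3b7, a bile acid enzyme of the family, rose in FVF- over the same days by 0.47 ± 0.12 (limma adjusted p = 0.00944).

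Among the regulators of steroid-making cells (8 of 10 measured), 4 were higher and 1 lower in FVF+, with a median of 0.13, where 28.9% of all genes were higher and 25.2% lower. Nr5a2, the close relative of Nr5a1 that acts in pancreatic and liver endoderm, was higher by 3.79 ± 0.30 (limma adjusted p = 2.9e-09), with group means of 12.42 to 12.84 in FVF+ and 7.87 to 9.36 in FVF-. Gata4 was higher by 2.17 ± 0.09 (adjusted p = 2.6e-13) and Gata6 by 0.44 ± 0.06 (adjusted p = 1.5e-06), and Wt1, a transcription factor of mesothelium and gonad, was lower (-3.27 ± 0.15, adjusted p = 9.4e-13). Gata6 changed in opposite directions: from first to last day it rose in FVF- by 0.77 ± 0.10 (limma adjusted p = 5.0e-05) and fell in FVF+ (-0.47 ± 0.09, adjusted p = 5.7e-04), and the interaction was -1.24 ± 0.14 (adjusted p = 1.3e-05). The corticotropin receptor Mc2r (0.00 ± 0.05) and its partner Mrap (-0.07 ± 0.06) were not called.

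Of genes that supply cholesterol or pass electrons to the enzymes, 8 of 12 were measured, and 3 were higher and 2 lower in FVF+, with a median of -0.06, beside the same shares of all genes. Fdx1, the ferredoxin that feeds electrons to Cyp11a1, was higher by 0.46 ± 0.08 (limma adjusted p = 4.0e-05), and Scarb1, a receptor for cholesterol-rich lipoprotein, by 0.38 ± 0.08 (adjusted p = 2.5e-04). Lipe, a lipase that frees stored cholesterol, was lower (-0.45 ± 0.07, adjusted p = 1.3e-05), as was Stard3, a relative of Star (-0.39 ± 0.07, adjusted p = 8.7e-05). In FVF- cells 3 of 8 rose from E12.5 to E15.5 and none fell, where 10.7% of all genes rose and 9.7% fell. The largest rise was that of Tspo, a mitochondrial cholesterol-binding protein (1.26 ± 0.17, limma adjusted p = 4.8e-05).

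Glucocorticoid carriage, reception and response genes were all measured (10 of 10), with 4 higher and 3 lower in FVF+ and a median of 0.12, again beside 28.9% and 25.2% of all genes. Serpina6, the corticosteroid-binding globulin of plasma, was higher in FVF+ by 4.09 ± 0.26 (SE, limma adjusted p = 1.1e-10), the receptor-bound chaperone Fkbp4 by 0.88 ± 0.06 (adjusted p = 2.7e-10), and the glucocorticoid receptor Nr3c1 by 0.36 ± 0.10 (adjusted p = 0.00563). Genes known to respond to glucocorticoid did not move as one: Sgk1 (-1.22 ± 0.12), Per1 (-0.76 ± 0.08) and Tsc22d3 (-0.48 ± 0.07) were lower in FVF+, and Fkbp5 was higher (0.34 ± 0.08). H6pd, which supplies the cofactor for Hsd11b1, differed between the sorts by 0.14 ± 0.07 (limma adjusted p = 0.0947). It rose in FVF- to E15.5 by 1.39 ± 0.12 (adjusted p = 9.4e-07), from a mean of 9.40 to 10.79, and in FVF+ by 0.40 ± 0.11 (adjusted p = 0.00750), and these rises differed by -0.99 ± 0.16 (adjusted p = 5.7e-04). Serpina6 rose in FVF- by 4.52 ± 0.48 (limma adjusted p = 5.4e-06), from a mean of 7.46 to 11.98, while FVF+ stood at 13.84 to 14.34 on all days. Over the same FVF- arrays the mean of the acinar marker list was 8.66 to 8.69 at E12.5 and 9.67 to 10.47 at E15.5. Of its markers 3 of 6 rose, where 10.7% of all genes did, and the part of acinar cells in the Serpina6 signal was not tested.

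**Figure D4:**
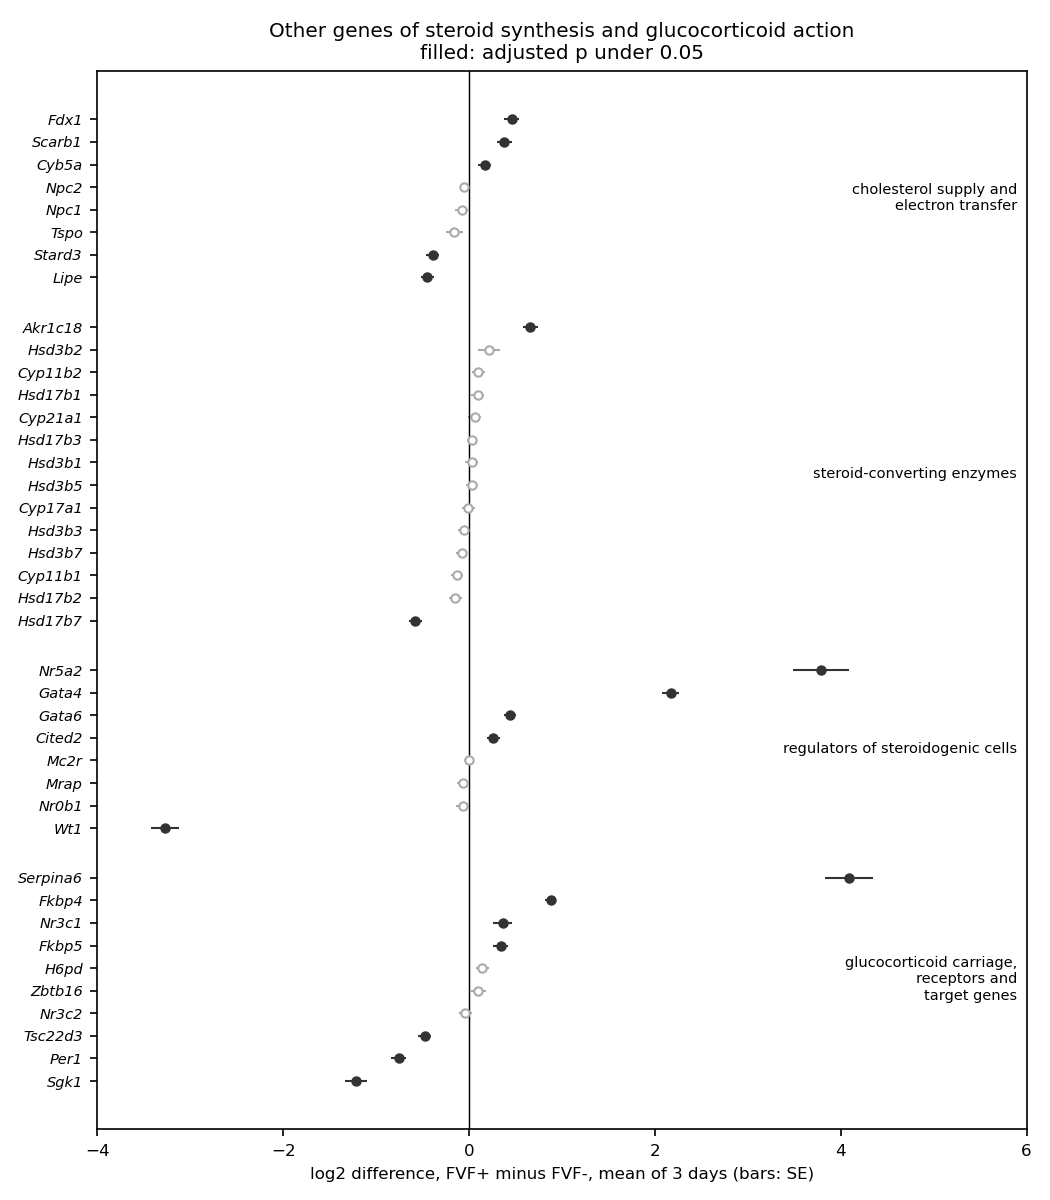
Difference in log2 RMA signal between the sorts (FVF+ minus FVF-, mean of E12.5, E14.5 and E15.5, horizontal axis) for the other measured genes of the 4 lists, with SE bars and filled points for an adjusted p under 0.05. Most steroid-converting enzymes lay near 0, whereas Serpina6 (4.09), Nr5a2 (3.79) and Wt1 (-3.27) lay far from it.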

How the data were processed

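RNA of sorted cells was isolated with a Qiagen RNeasy kit and labelled with Ambion and Affymetrix whole-transcript kits, per the labels' protocols. The deposited values are log2 signals that the authors made with RMA, and affy 1.44.0 is named in the submitters' processing notes. The RMA settings and the probe set definition are not given in the sources used here. Of 23305 probe sets, 20728 name 1 gene, 1174 several and 1403 none. The highest-mean single-symbol probe set stood for each of 19296 genes. The log2 values as deposited were fitted with limma 3.58.1 (R 4.3.3) as 8 group means with 13 residual degrees of freedom, and p-values were adjusted by the Benjamini-Hochberg method over all genes, with a threshold of 0.05. The fitting was tested on simulated data. 9 comparisons were tested and 5 that use E13.5 were not. The arrays' medians lay between 8.68 and 8.82.

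The members and lists were chosen with earlier results of these data known. Named beyond the 6 genes are, per list, up to 3 genes called with the largest rise and 3 with the largest fall in the 3-day mean, Serpina6 and H6pd, the most correlated genes (6 for Hsd3b6, 3 for each other), the Hsd3b family, and markers that move with a gene. Prss34, Il3ra, Tspo, Cyp11b2, Hsd17b2, Fkbp5 and the uncalled enzymes and receptors named were chosen after their values were seen, as were the Spearman leaders. Alternatives were median centring, quantile and cyclic loess normalization, trend and robust moderation, array weights, averaging probe sets per gene, dropping dim genes (highest group mean at or under the all-gene median), no E13.5 arrays, a replicate block, leaving out each array, and, chosen after seeing the data, leaving out both doubted arrays. Single-day sort differences and the E14.5 to E15.5 steps were rerun only with median centring, the replicate block and arrays left out. The block was set per number within each day for sort differences, and per number over all days for changes with time and interactions.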

Additional observations from a re-analysis of the deposited data

Results flagged for a closer look

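The time course of Hsd3b6 differed between the sorts. Its change from E12.5 to E15.5 in FVF+ exceeded that in FVF- by 3.03 ± 0.67 (SE, log2 units, 95% interval 1.62 to 4.44, limma adjusted p = 0.00475), with 0.15 in FVF+ and -2.88 in FVF-. It is singled out because a test of the difference itself passed the threshold. All 3 FVF- arrays at E15.5 lay below both at E12.5, whereas the FVF+ arrays of these days overlapped. With any 1 array left out the difference was 2.62 to 3.44, and its call was kept each time. In the same comparison 10.8% of all genes were higher and 8.83% lower. Of red blood cell markers, 2 of 5 (Hba-x and Hbb-bh1) were higher and 1 (Alas2) lower. Of adrenal cortex and gonad markers, 2 of 10 (Nr0b1 and Lhx9) were higher and none lower, near the share of all genes. Other lists were called as well, among them mast cell (5 of 7 lower), pancreatic epithelium (4 of 6 lower) and endocrine markers (2 of 6 higher). The part of any of these cell types in the Hsd3b6 difference was not tested.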

How the results depend on the processing

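Of 2080 recomputed values of 80 results, 1949 kept direction and side of the threshold, or for counts stayed within 1.5 times. The cause of the others was not tested. Sort differences on single days were rerun only with median centring, the replicate block and arrays left out. Under these, calls of Hsd3b6 and Hsd11b2 were kept on each day where they were made. The call of Hsd3b6 in FVF- from E12.5 to E15.5 was kept under every alternative. The filter on dim genes gives no values for Star, Cyp11a1, Nr5a1 and Hsd11b1.

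The interaction of Cyp11a1 passed the threshold under each of quantile and loess normalization, array weights and the block, and that of Hsd11b2 with array weights and without both doubted arrays. After quantile normalization the mean sort difference of Nr5a1 was 0.04, the FVF+ change from E12.5 to E15.5 was -0.11 for Star and -0.08 for Hsd11b2, the FVF- change was -0.01 for Hsd11b1, and the interaction was -0.88 for Cyp11a1. After cyclic loess normalization these were 0.01 for Nr5a1, -0.07 for Hsd3b6 and -0.11 for Star in FVF+, and interactions of -0.94 for Cyp11a1 and -0.06 for Nr5a1. After median centring the sort difference was -0.50 for Cyp11a1 at E14.5, 0.06 for Nr5a1 and -0.20 for Hsd11b1 at E15.5, and the FVF- change was 0.25 for Nr5a1, -0.07 for Hsd11b1 and -0.86 for Hsd11b2. With array weights the FVF+ change was 0.47 for Cyp11a1 and 0.22 for Hsd11b1, the FVF- change -0.80 for Hsd11b2, and the interaction -0.74 for Cyp11a1 and 0.93 for Hsd11b2. With trend and robust moderation the FVF+ change of Hsd11b1 was 0.22, and with the dim filter the FVF- change of Hsd11b2 was -0.78. Without both doubted arrays the sort difference was -0.02 for Nr5a1 at E14.5 and 0.26 for Star at E15.5, the FVF+ change was 0.48 for Cyp11a1, the FVF- change -0.78 for Hsd11b2, the last FVF- step -1.15 for Hsd3b6, and the interaction 1.06 for Hsd11b2.

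Whether same-numbered arrays came from the same embryos or sort is not stated. The array codes of most same-numbered arrays of a day were next to each other. Deviations of same-numbered arrays from their group means correlated at -0.368 to 0.488 within days (3 of 10 pairs over 0.1). Across days they correlated at -0.303 to 0.0694 (0 of 5). With so few arrays in a group, such deviations cannot decide whether the samples were paired. The calls above come from a fit without pairing, unless the block is named. With the replicate block set within days, the E15.5 calls of Star (0.26) and Hsd11b1 (-0.27) were lost. With the block shared over days, calls of Cyp11a1 for the FVF+ change (0.47) and the interaction (-0.85) were gained. Over all genes the block gave 9785 calls for the mean sort difference, against 10430.

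Of the 6 genes, the dim filter tested only Hsd3b6 and Hsd11b2, and 2 were called for the mean sort difference (4 of 6 before). Over all genes 7956 of 11274 were called there, against 10430 of 19296. For the FVF+ change it left 0 called (1 before, Nr5a1, which was not tested there), beside 5859 of 11274 genes. The count for the FVF+ change was 2 with trend and robust moderation, 3 with array weights, 2 with the block and 2 without both doubted arrays. Beside it, 9079, 10320, 9110 and 8360 of all 19296 genes were called, against 9048. For the interaction (1 before) the count was 2 with quantile or loess normalization, 3 with array weights, 2 with the block and 2 without both doubted arrays. Over all genes the interaction had 3915, 3409, 6009, 3425 and 3467 calls in that order, against 3786. Cholesterol supply had 3 interaction calls with array weights (1 before). Steroid-converting enzymes had 1 call for the mean sort difference with the dim filter and 5 without both doubted arrays (2 before), 2 for the FVF+ change with quantile or loess normalization and 1 with the dim filter (4 before), and 5 interaction calls with array weights and 1 with the dim filter (3 before). Regulators had 1 with the dim filter and 4 without both doubted arrays (2 before). Over all genes array weights gave 5826 calls for the FVF- change and 6009 interaction calls, against 3945 and 3786. Without FVF- E12.5 replicate 1 or 2 the FVF- change had 1995 or 2043, and without replicate 2 the interaction had 1818.

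With 1 array left out at a time, the sort difference at E14.5 was -0.28 to -0.08 for Star, -0.79 to -0.32 for Cyp11a1 and -0.02 to 0.09 for Nr5a1, and at E15.5 it was 0.22 to 0.33 for Star, -0.31 to -0.19 for Hsd11b1 and -0.08 to 0.04 for Nr5a1. The FVF+ change from E12.5 to E15.5 was 0.42 to 0.51 for Cyp11a1, 0.18 to 0.29 for Hsd11b1 and -0.06 to 0.28 for Hsd11b2, and the FVF- change 0.29 to 0.41 for Nr5a1, -0.04 to 0.06 for Hsd11b1 and -1.15 to -0.58 for Hsd11b2. The last FVF+ step was 0.27 to 0.48 for Star and -0.01 to 0.14 for Hsd11b2. The last FVF- step was -2.57 to -1.15 for Hsd3b6, 0.22 to 0.71 for Cyp11a1, 0.38 to 0.50 for Nr5a1 and -0.74 to -0.17 for Hsd11b2. The interaction was -0.92 to -0.49 for Cyp11a1 and 0.64 to 1.21 for Hsd11b2. Of the 6 genes 1 to 3 were called for the FVF+ change and 1 to 3 for the interaction. Over all 19296 genes these fits gave 7090 to 9483 calls for the FVF+ change and 1818 to 4237 for the interaction. Cholesterol supply had 3 to 6 calls for the FVF+ change and 0 to 1 for the interaction, the enzymes 2 to 4 for the mean sort difference and 1 to 3 for the FVF- change, and the regulators 1 to 3 for the interaction.

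The array weights were estimated with a warning that the fit stopped before its tolerance was reached. The number of arrays, 2 or 3 a group, limits what small differences such as those of Star, Nr5a1 and Hsd11b1 can show, and Cyp11a1 and Hsd11b1 are dim. Lists of most correlated genes depended on the arrays and the measure: those over the FVF- arrays shared 1 gene with the list over all arrays for Hsd3b6 and 1 for Nr5a1, and 0 for each of the others.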
